A study of Rattus norvegicus with 9 samples.

Results

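The cytosolic ribosomal proteins are the protein part of the ribosomes that translate nuclear-encoded mRNAs, and their transcripts were measured in the tibialis anterior muscle (TIB) of fed rats and of rats in phase 2 (P2) and phase 3 (P3) of prolonged fasting. Members were all genes with a probe set mapped to a single symbol that reads Rpl or Rps and a number, together with Rplp0, Rplp1, Rplp2 and Rpsa. Ribosomal S6 kinases, pseudogenes and like-genes were kept out. The rule found 68 of the 14506 genes that a single-symbol probe set of the array represents. Of these, 26 belong to the small subunit, 39 to the large subunit and 3 to the P stalk, the arm of the large subunit that recruits elongation factors. The 68 genes have 249 probe sets, and the one with the highest mean intensity stands for its gene.

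All 9 rats were male Sprague Dawley rats, 10 weeks old at purchase, with 1 Affymetrix Rat Gene 1.0 ST array per rat and 3 rats per group. Fed rats were killed with a full stomach, P2 rats in the phase in which fat is the main fuel and protein is spared, and P3 rats the day after the rate of body mass loss had risen again. The phases were thus set by each rat's body mass loss and not by a fixed time. RNA came from whole muscle, which holds fibres together with vessels, connective tissue and blood. Fewer cells of a type and less RNA per cell cannot be told apart in such samples. The fibre markers Acta1 and Ckm, skeletal alpha-actin and muscle creatine kinase, lay between 13.83 and 13.98 and between 13.41 and 13.61 on the log2 scale over the 9 arrays. The labelled tissue therefore showed its defining markers on every array.

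Each ribosome holds 1 copy of almost every ribosomal protein, joined to ribosomal RNA in the nucleolus, and free copies that find no ribosome are degraded. Most transcripts of this family begin with a cytosine followed by a run of pyrimidines, the 5′ terminal oligopyrimidine (TOP) motif, through which mTORC1 and the RNA-binding protein LARP1 set how much of the mRNA is translated. The level of these mRNAs is therefore not a measure of how much ribosomal protein is made. In muscle, ribosome content is known to set the capacity for protein synthesis, which falls in fasting.

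Windows of 30 bases around the annotated transcription start are shown for members on which the results below turn, 15 bases before the start and 15 from it, in RefSeq sequence of build GRCr8. Capitals mark an unbroken run of at least 5 C or T that covers the start base, on the strand with the sequence of the RNA. The first set holds members that were higher in P3, and the last window is that of Rplp0, which had the lowest value in P3 versus Fed:
Rpl3 (chr7:113507976-113508005, minus strand): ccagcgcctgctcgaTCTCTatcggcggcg
Rps12 (chr1:23500060-23500089, plus strand): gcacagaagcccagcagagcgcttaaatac
Rps27 (chr2:177964592-177964621, minus strand): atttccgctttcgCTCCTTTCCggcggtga
Rps9 (chr1:74430423-74430452, minus strand): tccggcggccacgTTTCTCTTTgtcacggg
Rplp2 (chr1:205975906-205975935, plus strand): cctttcgccgccggacgccgccgaggtcgc
Rps18 (chr20:4933730-4933759, plus strand): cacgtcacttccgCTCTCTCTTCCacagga
Rpl34 (chr2:221962269-221962298, minus strand): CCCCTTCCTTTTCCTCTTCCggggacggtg
Rps6 (chr5:106420526-106420555, minus strand): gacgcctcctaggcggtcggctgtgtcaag
Rplp0 (chr12:46718376-46718405, minus strand): gaccgcaccgcaCTTCTCTCgccaggcgtc

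Promoter entries were found for 58 of the 68 members, and 36 of these 58 (62.1%) held such a run. Over all 33469 promoters of the same length the share was 12.0%, and over 62 mitochondrial ribosomal protein genes it was 16.1%. The annotated first base was C in 55.2% of the members against 24.1% of all promoters. In P3 versus Fed the median log2 fold change was 0.15 over the 36 members with a run and 0.18 over the 22 without one, and 7 and 5 of them were called higher. Both kinds are among the windows above. Rps12, Rplp2 and Rps6 have no run at the annotated start and were called higher in P3. Rpl3, Rps27, Rps9, Rps18 and Rpl34 have a run and were also called higher, whereas Rplp0 has a run of 8 bases and was not. The start that muscle uses was not measured, and an annotated start can differ from it.

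The 3 groups were compared in 1 limma fit. A gene was called when its p, adjusted by Benjamini-Hochberg over all 29215 probe sets of a comparison, was under 0.05. Values of single rats are log2 intensities in the order of replicates 1, 2 and 3. Changes are log2 fold changes ± their standard error, with n = 3 rats per group.

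The family moved little as a whole. In P2 versus Fed, 1 of the 68 genes was called higher and none lower, while 5.13% of all probe sets were called higher and 4.15% lower. In P3 versus Fed, 13 genes (19.1%) were called higher and none lower, against 15.8% and 13.4% of all probe sets. In the direct comparison of P3 with P2, 2 genes were called higher and none lower, against 8.5% and 7.52%. The share called higher in P3 was thus near the share over all probe sets, and in that same comparison no member was called lower. At an unadjusted limma p under 0.05, 16 genes (23.5%) were higher in P2 and 27 (39.7%) in P3 relative to Fed, against 12.5% and 20.2% of all probe sets. In P3 relative to P2, 4 genes (5.88%) were higher, below the 13.3% over all probe sets. At that threshold 0 members were lower in each comparison, against 9.62%, 17.9% and 12.6% of all probe sets, and the test of the study's methods called no member lower either.

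Most values nevertheless lay on the positive side. The median log2 fold change over the 68 genes was 0.14 in P2 relative to Fed and 0.16, or 1.12-fold, in P3 relative to Fed, whereas over all probe sets the medians were 0.01 and 0.00. Values were above 0 for 61 of the 68 genes (89.7%) in P2 and for 58 (85.3%) in P3, against 52.9% and 50.1% of all probe sets. Both comparisons share the 3 fed rats. From P2 to P3, 44 genes (64.7%) had a value above 0, against 47.4% of all probe sets. In P3, 39 of the 68 genes (57.4%) had all 3 rats above all 3 fed rats, a pattern seen in 22.3% of all probe sets, and 2 genes, Rplp0 and Rpl35a, had all 3 rats below, a pattern seen in 20.1%. In P2, 14 genes (20.6%) lay wholly above the fed rats and none below, against 13.3% and 10.9% of all probe sets. Between P3 and P2, 7 genes lay wholly above and none below, against 13.8% and 13.6%.

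The sizes were small. The log2 fold change in P3 stayed under 0.5 in either direction for 61 of the 68 genes (89.7%) against 76.5% of all probe sets, and the 95% interval lay within that bound, which is 1.41-fold, for 47 (69.1%) against 55.0%. Of the 55 genes that were not called in P3, 45 had such an interval and 10 had one that reached the bound. For those 10, a change of that size lies within the interval. Its width comes from 1 estimate of the spread over all 3 groups, P2 included. For Rplp0, 1 of the 10, the SD was 0.02 in Fed, 0.36 in P2 and 0.03 in P3. Only Rpl3, Rps12 and Rps27 differed by at least 1.5-fold between P3 and Fed.

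**Figure D1:**
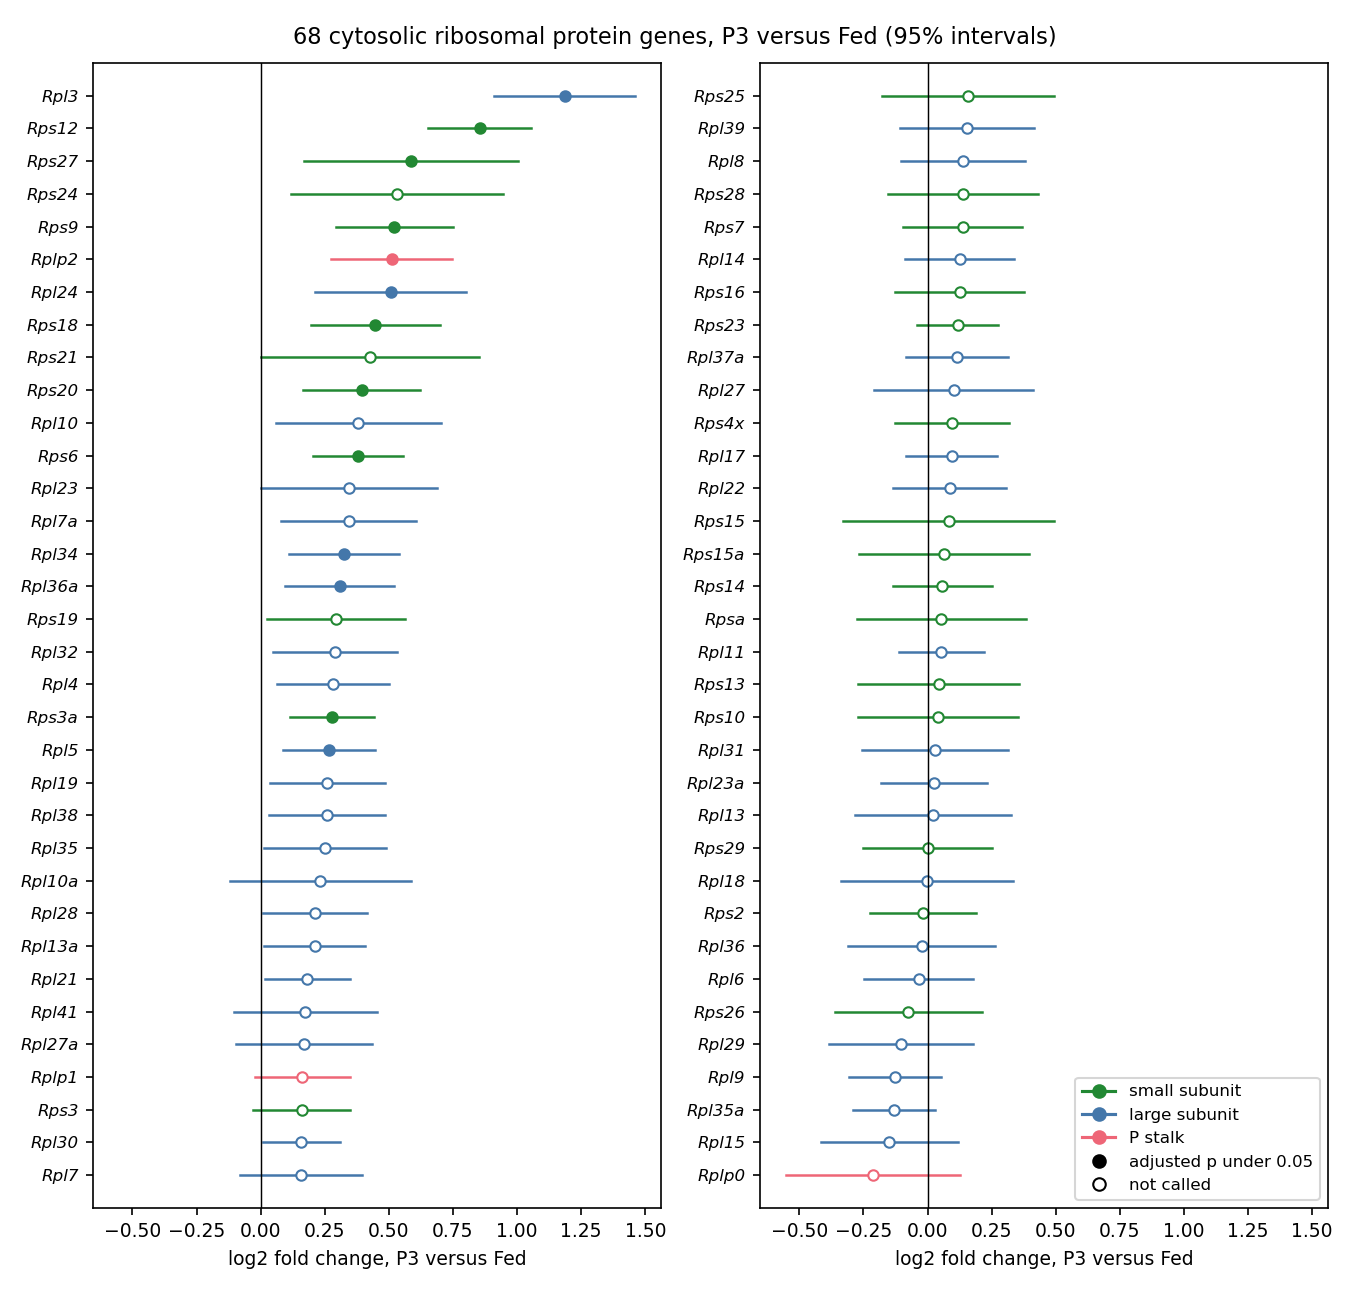
Log2 fold change in P3 versus Fed (horizontal axis) of each of the 68 genes, sorted by size, with the limma 95% interval as a line, coloured by subunit and filled where the adjusted p was under 0.05. The 13 filled points, from 0.27 to 1.18, all lie to the right of 0, and the lowest open point is Rplp0 at -0.21.

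Array P2 1 stood apart for these genes. It gave the highest P2 value for 66 of the 68 members and the highest of all 9 arrays for 53 of them, while over all probe sets these shares were 38.7% and 14.9%. Relative to the fed mean of each gene, the median over the members was 0.35 in P2 1, -0.02 in P2 2 and 0.12 in P2 3, and it was 0.15, 0.16 and 0.16 in the 3 P3 rats. The rats of P3 thus lay close together, and those of P2 did not. The median SD of a member was 0.09 in Fed, 0.20 in P2 and 0.06 in P3, against 0.10, 0.12 and 0.11 over all probe sets. Across pairs of members, which are not independent replicates, the median Pearson's r of the deviations from the group means was 0.76 over the 9 arrays and 0.28 over the 6 arrays of Fed and P3. P2 1 also had the lowest P2 level of the fibro-adipogenic markers (median 7.84, against 9.20 in P2 2 and 8.46 in P2 3, log2) and the highest of the adipocyte markers (6.88, against 6.27 and 6.39). The part of tissue composition in the ribosomal protein values was not tested.

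**Figure D2:**
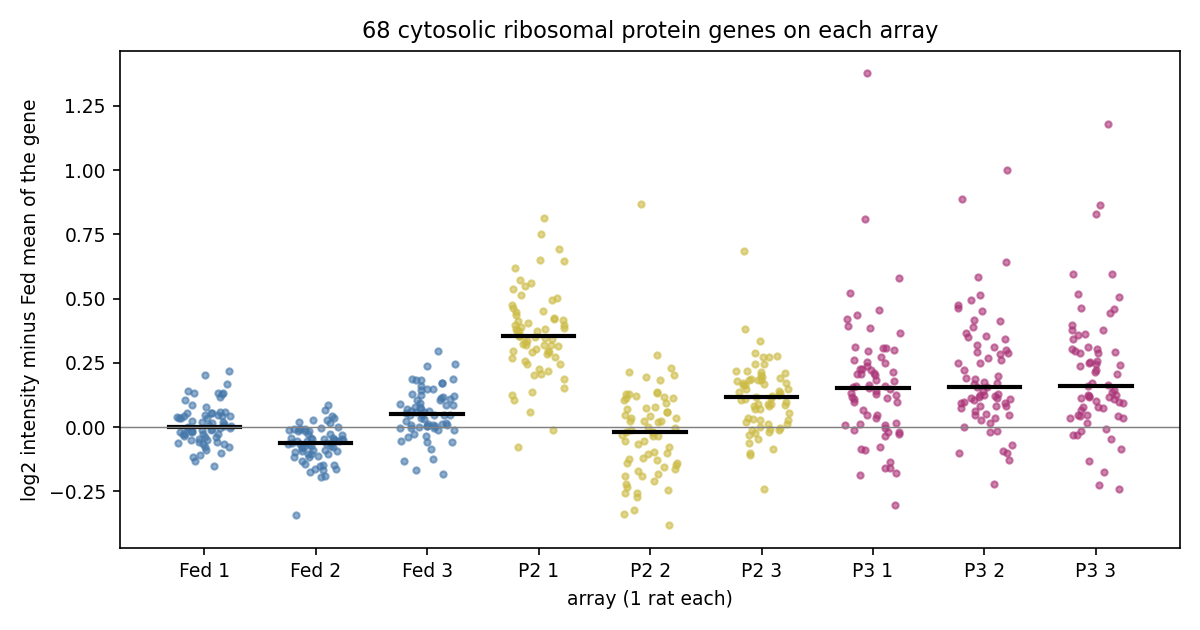
Each point is 1 of the 68 genes on 1 array, as its log2 intensity minus the mean of the 3 fed rats (vertical axis), and bars are medians over the genes. The bar of P2 1 stands at 0.35, above the bars of the P3 arrays (0.15, 0.16 and 0.16), while that of P2 2 lies at -0.02.

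The P2 values rest on that rat to a large part. Without P2 1 the median of the members in P2 versus Fed was 0.053, and without P2 2 it was 0.23. Since the groups share 1 estimate of the spread, leaving out P2 1 also raised the number called higher in P3 versus Fed from 13 to 22, with 1 gene, Rplp0, called lower. The number called higher was 17 without P2 2 and 11 without P2 3. Leaving out a rat of the compared groups lowered it, to 6 without Fed 1, 6 without Fed 2 and 12 without Fed 3. It was 10 without P3 1, 8 without P3 2 and 7 without P3 3. The share of all probe sets called in each of these fits is not given. These counts therefore cannot be read as particular to the members.

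Rpl3, a large subunit protein that reaches to the peptidyl transferase centre, changed most. Its probe set (10905530) gave 7.77, 7.48 and 7.44 in the fed rats, 8.26, 8.43 and 8.25 in P2 and 8.94, 8.56 and 8.74 in P3. No value of a fasted rat fell in the range of the fed rats, and the P3 range lay above that of P2. The log2 fold change was 0.75 ± 0.12 in P2 (adjusted p = 0.00622, limma) and 1.18 ± 0.12 in P3 (adjusted p = 8.86e-05, limma), which is 2.27-fold. It was the single member called in P2, and there P2 1 did not stand apart. From P2 to P3 it rose by a further 0.44 (adjusted p = 0.0406, limma), but this call was kept in 10 of 23 alternatives. It was lost without Fed 2, Fed 3, P2 1, P2 3, P3 1 or P3 3, with adjusted p up to 0.129. Rpl3l, the paralogue of this protein that striated muscle also expresses, was not analysed here.

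Rps12, in the head of the small subunit, was the other member that differed between P3 and P2. The fed rats had 9.88, 9.93 and 10.07, the P2 rats 10.45, 10.19 and 10.23, and the P3 rats 10.77, 10.85 and 10.82. The 3 groups did not overlap. Its log2 fold change was 0.85 ± 0.09 in P3 versus Fed (adjusted p = 9.38e-05, limma), or 1.81-fold, and 0.52 ± 0.09 in P3 versus P2 (adjusted p = 0.00361, limma). In P2 versus Fed it was 0.33 (adjusted p = 0.0507, limma), just outside the threshold, while 2 of the 4 probe sets of Rps12 were called higher. All 4 were called higher in P3 versus Fed, with log2 fold changes between 0.73 and 0.87. The calls of Rps12 in P3 versus Fed and in P3 versus P2 held with each array left out.

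**Figure D3:**
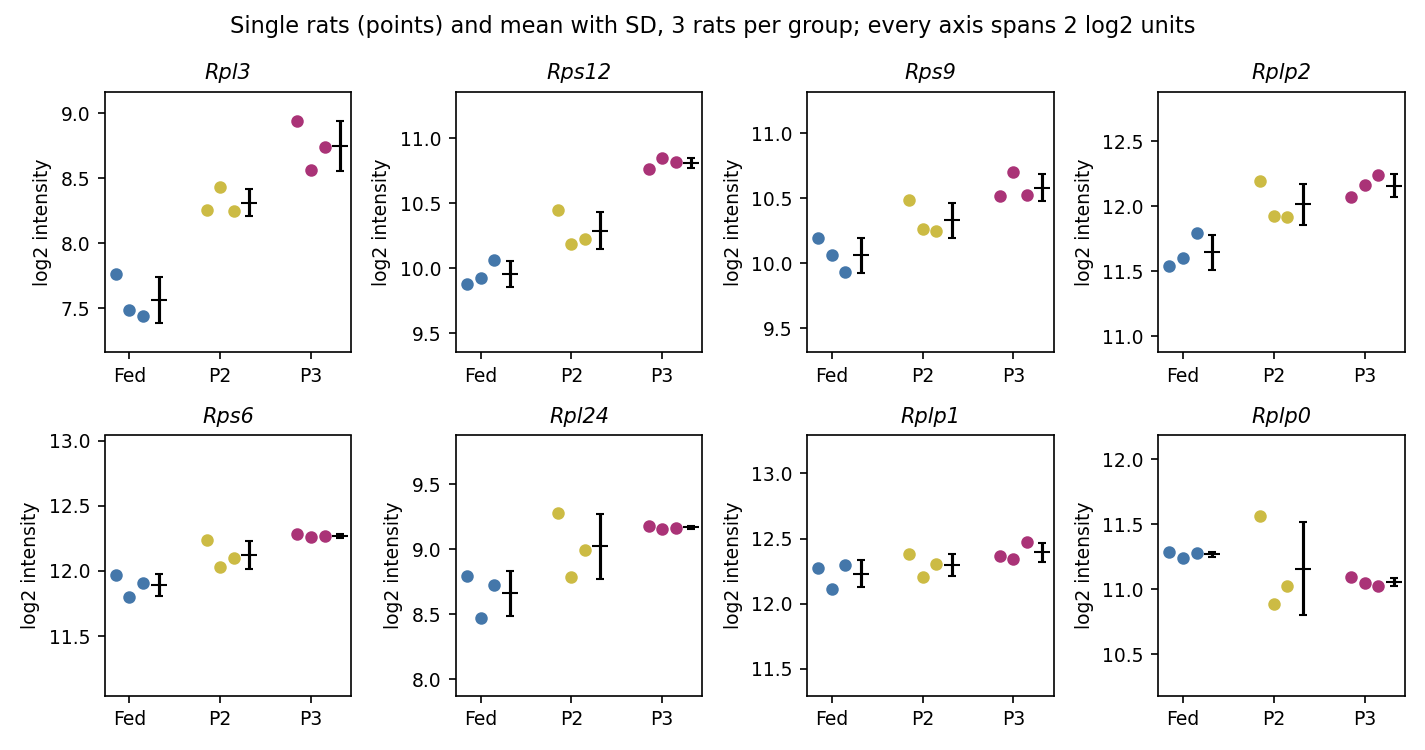
Log2 intensity (vertical axes, each spanning 2 log2 units) of 8 genes in single rats of Fed, P2 and P3 (points), with the group mean and SD beside them. Rpl3 and Rps12 step up from Fed to P2 and from P2 to P3 without overlap, and the 3 P3 values of Rplp0 lie below the 3 fed values.

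Among the other small subunit genes, Rps9, Rps6, Rps18, Rps20, Rps27 and Rps3a were called higher in P3. Rps9, a protein at the mRNA entry channel, had 10.19, 10.06 and 9.93 in Fed, 10.49, 10.26 and 10.24 in P2, and 10.52, 10.70 and 10.52 in P3. All fasted rats lay above all fed rats, with a P3 change of 0.52 ± 0.10 (adjusted p = 0.00379, limma). Rps6, the substrate of the S6 kinases downstream of mTORC1, had 11.97, 11.80 and 11.90 in Fed and 12.28, 12.26 and 12.27 in P3. Its P3 rats lay close together above the fed rats, and its change was 0.38 ± 0.08 (adjusted p = 0.00495, limma), while the P2 rats, at 12.24, 12.03 and 12.10, were between the other groups. Both genes stayed called with each array left out.

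The calls of the other 4 were less stable. Rps18 (0.45) lost its call without Fed 1, and Rps20 (0.39) and Rps3a (0.28) lost theirs without Fed 1, Fed 2 or P3 3, the former also without P3 2. Rps27, a zinc-finger protein, was dimmer and more spread among fed rats, with 6.05, 5.66 and 6.30 in Fed, 6.82, 6.20 and 6.39 in P2 and 6.58, 6.59 and 6.60 in P3. Its change of 0.59 ± 0.18 (adjusted p = 0.0405, limma) held in 3 of the 9 fits that leave out an array. Rps24 had a similar P3 change, 0.53 ± 0.18, and was not called (adjusted p = 0.0582, limma).

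Other small subunit genes of known roles were not called in the main analysis. Rps19 and Rps14, which are linked to Diamond-Blackfan anaemia and to the anaemia of the 5q- syndrome, had P3 changes of 0.30 and 0.06 with 95% intervals of 0.03 to 0.56 and -0.14 to 0.25. Rps3, at the mRNA entry channel, had 0.16 (-0.03 to 0.35). Rps4x and Rpsa, the latter also known as the laminin receptor, had 0.09 (-0.13 to 0.32) and 0.05 (-0.28 to 0.38). None of these 5 passed the main test in any comparison, and in P2 the highest rat was P2 1 for each. The P3 change of Rps19 was nevertheless as large as that of the called Rps3a (0.28), and its P2 change was 0.35. All P2 and P3 rats of Rps19 lay above its fed rats. It was called in P3 with array weights (adjusted p = 0.0391, limma) and without P2 1 (adjusted p = 0.0457, limma).

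Of the 39 large subunit genes, Rpl3, Rpl24, Rpl34, Rpl36a and Rpl5 were called higher in P3. Rpl24, which takes part in a bridge between the subunits, had 8.79, 8.47 and 8.72 in Fed and 9.18, 9.15 and 9.17 in P3. These groups did not overlap, and the call of the 0.51 ± 0.13 change (adjusted p = 0.0162, limma) was lost without Fed 2 alone (adjusted p = 0.0625). The other probe set of Rpl24 (10753732), of similar intensity, changed by 0.20 in P3 and was not called (adjusted p = 0.0659, limma). Rpl5 and Rpl11 bind 5S ribosomal RNA together and, when free, the p53 regulator Mdm2. Rpl5 had 12.24, 12.25 and 12.31 in Fed, 12.62, 12.40 and 12.46 in P2, and 12.47, 12.61 and 12.53 in P3, so that all fasted rats lay above the fed rats. Its P3 change was 0.27 ± 0.08 (adjusted p = 0.0318, limma), and it passed in 4 of the 9 fits that leave out an array.

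Rpl11, its partner, had 0.05 in P3 with an interval of -0.11 to 0.22. Rpl34 (0.32) and Rpl36a (0.31) also lost their calls in 5 and 7 of the 9 fits with an array left out. Rpl10, which joins the subunit late in its maturation, had a P3 change of 0.38 ± 0.14 and was not called (adjusted p = 0.0777, limma), although its P3 rats lay above its fed rats. Rpl13a (0.21), Rpl38 (0.26), Rpl41 (0.17), Rpl22 (0.09) and Rpl31 (0.03) were not called either. Of these, the last 3 had intervals that spanned 0.

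The P stalk genes did not follow each other. Rplp2 had 11.54, 11.60 and 11.80 in Fed, 12.19, 11.93 and 11.92 in P2, and 12.07, 12.16 and 12.24 in P3. All 6 fasted rats exceeded all fed rats, and its P3 change of 0.51 ± 0.10 (adjusted p = 0.00493, limma) was seen in its 3 probe sets and held with each array left out. Rplp1, which pairs with Rplp2 on the stalk, had 0.16 with an interval of -0.02 to 0.35. Rplp0, the base of the stalk and a common reference gene for quantitative PCR, had 11.29, 11.24 and 11.28 in Fed, 11.56, 10.89 and 11.03 in P2, and 11.09, 11.05 and 11.03 in P3.

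The P3 values of Rplp0 were thus all below the fed values, and its P2 values lay on both sides. The change was -0.21 ± 0.15 in P3 and was not called (adjusted p = 0.348, limma). With P2 1 left out it became a call in P3 (adjusted p = 0.0360, limma) and in P2, at -0.31 (adjusted p = 0.0298, limma). The difference between Rplp2 and Rplp0 was not tested. Rpl15 (-0.15) and Rpl35a (-0.13) followed Rplp0 at the low end. Rpl35a was called lower in P3, at -0.22 (adjusted p = 0.0290, limma), when the arrays were quantile-normalized once more, and Rpl15 passed in none of the alternatives.

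Ribosomal protein genes have many processed pseudogenes in the genome, and 53 of the 68 members have several probe sets, up to 21 for Rpl21, that may share sequence. A probe set can therefore also read transcripts of near-identical copies, and agreement between probe sets is not independent evidence. The log2 fold changes of a gene's probe sets in P3 spanned a median of 0.07 and under 0.2 in 47 of the 53 genes. Over the 249 probe sets of the members, limma called 37 (14.9%) higher in P3 and 4 (1.61%) in P2 relative to Fed, and 7 (2.81%) in P3 relative to P2. Each share was at or below that over all probe sets of the array, which was 15.8%, 5.13% and 8.5%. None of the 249 was called lower in these comparisons. For Rpl7a, 6 of 13 probe sets were called in P3, while the one with the highest mean just missed the threshold (0.34, adjusted p = 0.0550, limma). Rpl13 showed the widest span. Its brightest probe set changed by 0.02, whereas a dim one (10808601), at 4.74, 4.66 and 4.55 in Fed and 5.67, 5.56 and 5.71 in P3, changed by 1.00 (adjusted p = 1.41e-05, limma).

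**Figure D4:**
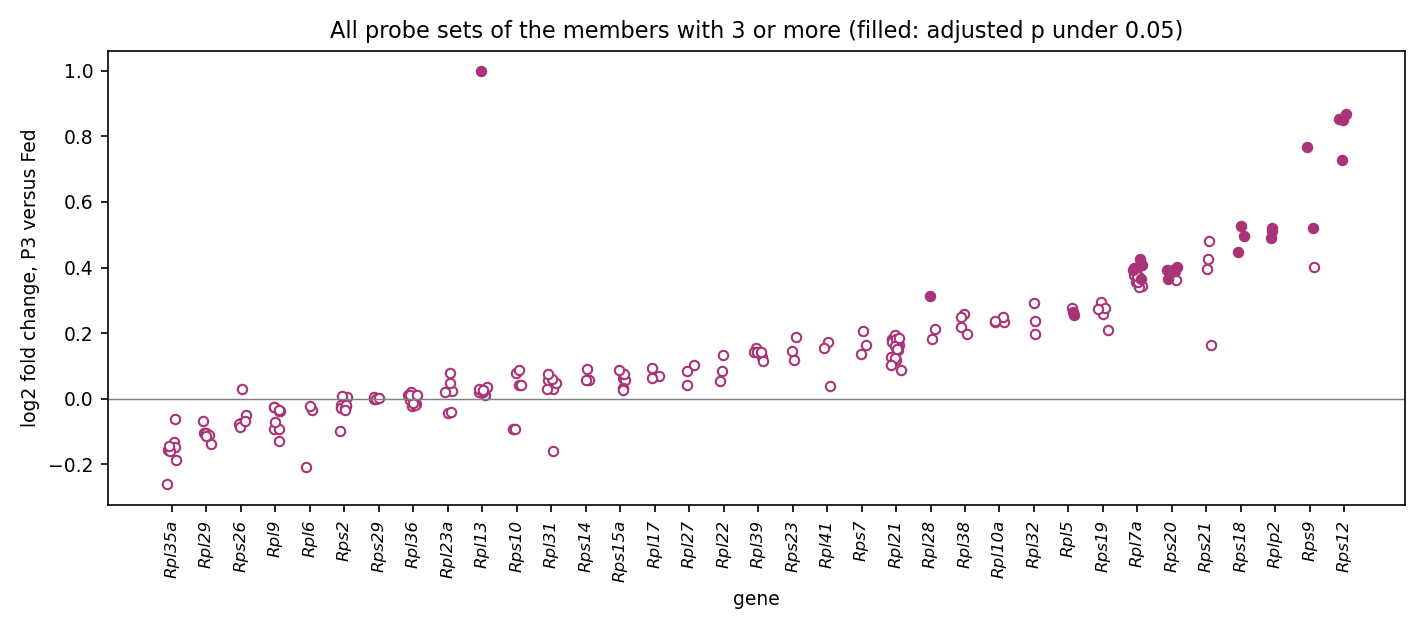
Log2 fold change in P3 versus Fed (vertical axis) of each probe set of the genes that have at least 3, sorted by the gene's median, with filled points for an adjusted p under 0.05. Points of a gene lie close together except for single probe sets such as that of Rpl13 at 1.00.

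Genes that act on or beside the ribosome moved further. For these and the following lists, 15.8% of all probe sets were called higher and 13.4% lower in P3 versus Fed. In P2 versus Fed the shares were 5.13% and 4.15%, and in P3 versus P2 they were 8.5% and 7.52%. Of 58 measured genes of ribosome biogenesis, 49 were called higher in P3 versus Fed and 1 lower, Emg1 at -0.85, and the median log2 fold change was 0.90. In P2 19 were higher and 2 lower, Emg1 and Imp4, and the median was 0.26. From P2 to P3, 46 of them were higher and none lower, while of the ribosomal protein genes 2 were. Nob1, which makes the last cut of 18S ribosomal RNA, rose from 7.63, 7.82 and 7.60 in Fed to 9.78, 9.96 and 10.04 in P3, a change of 2.24. Mphosph10 and Wdr43, of the small subunit processome, rose by 2.13 and 1.96. The assembly factors and the proteins they assemble thus changed to different extents, and this difference between the lists was not tested. The biogenesis genes were also dimmer than the ribosomal protein genes, with log2 medians of 7.92 to 8.69 per array.

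The 68 measured mitochondrial ribosomal protein genes, which build the ribosome of the mitochondrion, lay on the other side of 0. In P3 versus Fed 38 were called lower and 3 higher, with a median of -0.40, and in P2 18 were lower and none higher, with a median of -0.22. In P3 Mrpl48 fell by 1.80 and Mrpl12 fell by 1.66. Mrpl41 went the other way, from 8.44, 8.35 and 8.13 in Fed to 11.71, 11.55 and 11.41 in P3, a rise of 3.25, and Mrpl32 and Mrpl55 rose by 0.59 and 0.43.

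Other mRNAs known to carry a TOP start were mixed. In P3, 6 of 12 were called higher and none lower, with a median of 0.43, and in P2 4 were higher. Nap1l1, a histone chaperone, rose by 1.63, Npm1, the nucleolar protein nucleophosmin, by 0.96, and Eif3e, a subunit of an initiation factor, by 0.58 in P3. Eef1a1, the elongation factor that brings aminoacyl-tRNA to the ribosome, rose by 0.51 in P3 and 0.52 in P2, while Tpt1 had -0.20 and Eef1g -0.11 without a call. In P3, 8 of the 12 TOP genes had a positive change and 4 a negative one, the lowest at -0.33. Fau, which encodes a ribosomal protein fused to a ubiquitin-like domain, and Rack1, the scaffold on the small subunit, had 0.16 and 0.04 in P3 and were not called. The median of the TOP genes was also highest in P2 1 among the P2 rats, at 11.35 against 10.89 and 10.99 on the log2 scale.

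**Figure D5:**
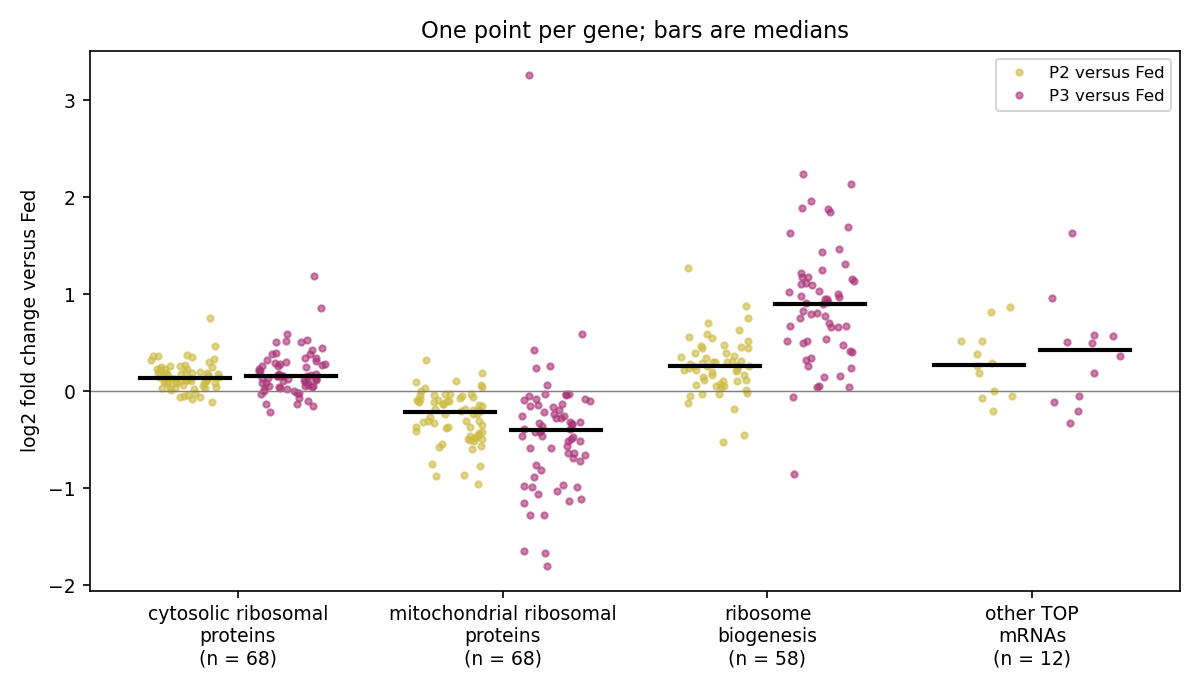
Log2 fold change versus Fed (vertical axis) of each gene of 4 lists in P2 and in P3, with bars at the medians. The ribosomal protein genes cluster at 0.14 and 0.16, the biogenesis genes reach a median of 0.90 in P3, and the mitochondrial ribosomal protein genes lie at -0.22 and -0.40.

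Among 12 measured kinases and regulators of ribosomal proteins and TOP mRNAs, 7 were called higher and 1 lower in P3. Myc, a transcription factor that drives ribosome production, went from 6.17, 5.99 and 6.10 in Fed to 7.55, 7.73 and 7.52 in P2 and 9.19, 9.12 and 9.59 in P3, a change of 3.21. Eif4ebp1, the cap-dependent translation repressor that mTORC1 phosphorylates, rose by 2.67, and Rps6ka2, a kinase of the RSK family, fell by 2.44. These 3 genes differed between the groups without overlap and by far more than any ribosomal protein gene. Rps6kb1, the kinase of Rps6, was called lower in P2 at -0.43 and had -0.27 in P3 without a call.

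Markers of some other cell types moved between the groups too. In P3 versus Fed, 7 of 9 fibro-adipogenic markers were called lower (median -2.28), with the median marker level of single rats going from 9.59 to 10.01 in Fed to 7.16 to 7.92 in P3. Smooth muscle and pericyte markers were lower in 4 of 6, and red blood cell markers in 2 of 3, Alas2 and Hbb, a haemoglobin chain that fell by 2.14. Of the macrophage markers 1 of 10 was higher (Cd163), of the endothelial markers 1 of 7 (Pecam1), and of the lymphocyte markers none of 8. These shares were near or below the 15.8% of all probe sets called higher. Fibre markers were lower in 1 of 7, the oxygen store Mb, which fell by 0.81. That share was near the 13.4% of all probe sets called lower. Adipocyte markers were higher in 3 of 7 in P2 (Adipoq, Cidec and Fabp4) and lower in 1 in P3 (Fabp4), and of the 3 satellite cell markers Sdc4 was higher and Chodl lower in P3. Their part in the ribosomal protein values was not tested.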

How the data were processed

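TIB RNA of 9 rats was hybridised to Affymetrix Rat Gene 1.0 ST arrays. The authors summarised the probes with Affymetrix Expression Console 1.1 by RMA, with sketch quantile normalization and median polish, and the deposited values are log2 intensities per probe set. No batch is named in the labels. Symbols came from the platform annotation: 15310 of 29215 probe sets had 1 symbol, 323 several and 13582 none. All probe sets were tested with limma 3.58.1 in R 4.3.3 (lmFit and eBayes, 3 group means, 2.87 prior degrees of freedom), and the script was checked on simulated data. The number of arrays, 3 per group, limits the precision. Start windows were read from the RefSeq promoter table of GRCr8 (250 bases before to 50 after each start), matched by symbol.

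Members, lists and alternatives were chosen with earlier results of these data known. Values are given for up to 6 called members per direction and comparison with the largest changes, for a list of members with known roles, and for the 3 most changed genes of each other list. Rps18, Rps20, Rps24, Rps3a, Rpl7a, Rpl13, Rpl15, Rpl21, Rpl34, Rpl35a and Rpl36a, further genes of the other lists and the windows shown were chosen after their values were seen. Replicates are single rats. The alternatives were quantile normalization once more, array medians subtracted, a mean log2 of at least 5, robust moderation with an intensity trend, only single-symbol probe sets, array weights, a replicate block, only the groups compared, other thresholds, the ANOVA and Tukey test of the methods, the mean of a gene's probe sets, members without a final l, and each array left out. No member has a symbol with a final l, so that setting could only return the main values. Centring on the members' median was added after seeing the data.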

Additional observations from a re-analysis of the deposited data

Results flagged for a closer look

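For 2 members the change from Fed differed between P2 and P3 by the direct limma comparison of these phases. The P3 level of Rps12 exceeded that of P2 by 0.52 on the log2 scale (adjusted p = 0.00361, limma), and all 3 P3 rats lay above all 3 P2 rats. For Rpl3 the difference was 0.44 (adjusted p = 0.0406, limma), again without overlap, and its call was lost in 13 of 23 alternatives.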

How the results depend on the processing

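No call of a member reversed under any alternative, and no named gene changed the sign of a call: of 2484 values of named genes over the 23 alternatives that apply to single genes, 2394 kept their side of the threshold, 58 lost it and 32 gained it. A further 51 values without a call changed sign, the largest main value among them being 0.12. Counts of members are given for P2 against Fed, then P3 against Fed, then P3 against P2. The share of all probe sets called under each alternative is not given. The counts therefore show shifts among the members and no excess over other genes. The number called higher was 1, 13 and 2 in the main analysis, 4, 13 and 1 after quantile normalization once more (with 1 lower in P3 versus Fed), 3, 16 and 2 at a mean log2 of at least 5, 3, 16 and 2 with single-symbol probe sets, and 3, 23 and 3 with array weights. It was 1, 5 and 1 at an adjusted p under 0.01, 1, 3 and 0 with a change of at least 1.5-fold, and 1, 22 and 1 with only the 2 groups compared (with 1 lower in P3 versus Fed). The methods' ANOVA and Tukey test gave 0, 2 and 0 at p under 0.001 and 5, 6 and 2 after Benjamini-Hochberg adjustment. Averaging a gene's probe sets gave 2, 13 and 2, and centring on the members' median gave 1, 12 and 1. With each array left out it ranged from 1 to 2, from 6 to 22 and from 1 to 2, with 0 to 1 lower in P2 and in P3 versus Fed. The members' median then ranged from 0.053 to 0.23 in P2 versus Fed and from -0.040 to 0.14 in P3 versus P2. In P3 versus Fed it ranged from 0.11 to 0.18, with 0.16 in the main analysis. After quantile normalization once more the P3 versus Fed median fell to 0.088. The cause of these shifts was not tested. The sign of the P3 versus P2 median, 0.025, is not settled, and it was -0.013 after quantile normalization once more.

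The replicate numbers are shared between groups, but same-numbered rats did not deviate together (r from -0.24 to 0.12 over 9 pairs, and from -0.16 to 0.31 over other pairs). With the replicate block, 1, 12 and 1 members were called higher.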

Other observations

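Symbols outside the rule that resemble members were also measured. Rpl22l1, a paralogue of Rpl22, had 8.12, 7.91 and 7.87 in Fed, 8.11, 8.09 and 7.50 in P2 and 8.98, 8.59 and 8.95 in P3 on the log2 scale. It was higher in P3 by 0.87 versus Fed (adjusted p = 0.00498, limma) and by 0.94 versus P2 (adjusted p = 0.00627, limma), while Rpl22 itself had 0.09 in P3 versus Fed. Rpl37l1 was higher in P3 versus Fed by 0.36 (adjusted p = 0.0315, limma). Rpl36al1 (0.07), Rpl17-ps16 (0.26) and Rps4y2 (-0.35) were not called.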
